A study of Mus musculus with 12 samples.

Results

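The genes described here are 10 markers of osteoclasts, the cells that resorb bone, measured in the modiolus, the bony core of the cochlea that holds the auditory nerve. They were taken as every probe set whose gene symbol in the platform annotation was exactly Acp5, Ctsk, Atp6v0d2, Dcstamp, Ocstamp, Calcr, Oscar, Nfatc1, Tnfrsf11a or Itgb3, which gave 18 probe sets of the 45037 tested and 10 genes of the 18193 with a probe set of their own. Gene expression was profiled on Affymetrix mouse genome arrays in auditory nerve preparations of adult CBA/CaJ mice aged 8 to 12 weeks. Ouabain, an inhibitor of the sodium pump that kills type I spiral ganglion neurons, was applied at 3 mM to the right cochlea for 60 min, and the untreated left ears served as controls. Tissue was taken 3 days or 7 days later, with 3 arrays for each of control 3 days, ouabain 3 days, control 7 days and ouabain 7 days. The 3-day controls are labelled as unoperated contralateral ears and the 7-day controls only as controls. Each array was hybridized with RNA pooled from a pair of preparations, and the animals in each pool were not named, so that p-values measure the spread between pools. No osteoclasts were isolated, and in such bulk tissue fewer cells of a type and less RNA per cell cannot be told apart.

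Osteoclasts form by fusion of precursors of the monocyte lineage. Macrophage colony-stimulating factor (Csf1), acting on its receptor Csf1r, keeps the precursors alive, and RANKL (Tnfsf11) acting on RANK (Tnfrsf11a) drives their differentiation, with osteoprotegerin (Tnfrsf11b) as a soluble decoy that captures RANKL. RANK signals with costimulation through ITAM adaptors induce Nfatc1, the transcription factor at the head of the osteoclast program. The mature cell attaches through the αvβ3 integrin, secretes acid with a vacuolar proton pump and digests the matrix with cathepsin K. The cochlea is encased in some of the least remodelled bone of the skeleton, and osteoprotegerin made in the inner ear is known for restraining its resorption.

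Values are RMA log2 expression levels, and a difference of 1 on this scale is a doubling. A gene was represented by its probe set with the highest mean, and was called changed when its fold change exceeded 1.5 and its limma p, adjusted by Benjamini-Hochberg across all probe sets, was under 0.05. By this rule 1 of the 10 osteoclast genes, Atp6v0d2, rose after ouabain, and it rose at both days. No osteoclast gene was called lower at either day. In control 7 days replicate 1, erythroid and neutrophil genes of the blood-forming marrow stood far above the other 7-day controls. Without that array 2 osteoclast genes were called higher at 3 days (Acp5 and Atp6v0d2) and 2 at 7 days (Ctsk and Atp6v0d2). The 3-day Acp5 difference stayed at 1.89 there, and its SE, drawn from a spread shared by all groups, fell from 0.73 to 0.51. Without control 3 days replicate 1, control 3 days replicate 3 or ouabain 3 days replicate 3, no osteoclast gene was called at 3 days. Of all genes, 7.51% were called higher and 8.06% lower at 3 days, and 7.57% higher and 8.2% lower at 7 days, so the count of osteoclast genes lay near the share of all genes. The median log2 change of the 10 genes was 0.29 at 3 days and 0.03 at 7 days, against 0.01 and 0.03 over all genes. Among the 18 probe sets, 3 were called at 3 days (12.3% of all probe sets were) and 2 at 7 days (12.7% of all).

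**Figure D1:**
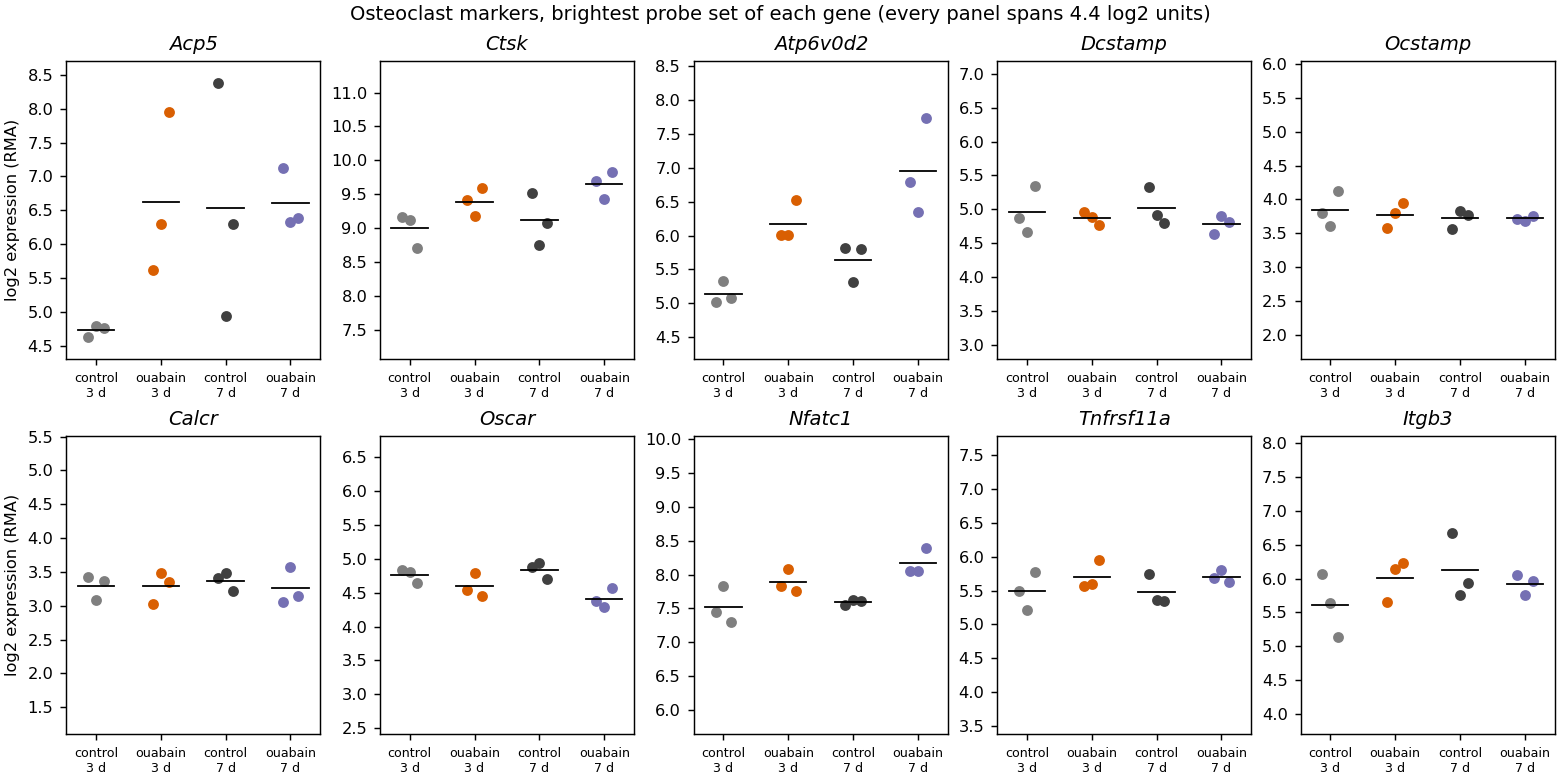
Log2 expression (RMA) of the 10 osteoclast genes in each array, by group (control and ouabain at 3 and 7 days, 3 arrays each); points are arrays, bars are group means, and every panel spans the same log2 range. The Atp6v0d2 points of ouabain ears lie above those of control ears at both days. The Acp5 points spread most widely in the 3-day ouabain ears and the 7-day controls.

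Atp6v0d2 encodes the d2 subunit of the vacuolar proton pump, which is abundant in osteoclasts and also takes part in the fusion of their precursors. Its brighter probe set, 1434798_at, read 5.02, 5.32 and 5.07 in replicates 1, 2 and 3 of the 3-day controls and 6.002, 6.01 and 6.52 in the ouabain ears. At 7 days it read 5.81, 5.32 and 5.81 in the controls and 6.78, 6.35 and 7.73 after ouabain. All ouabain arrays stood above all control arrays at each day, and the highest of the 12 values was ouabain 7 days replicate 3. The log2 fold change was 1.04 (SE 0.29, limma adjusted p = 0.0192, 2.06-fold) at 3 days and 1.31 (SE 0.29, adjusted p = 0.00508, 2.48-fold) at 7 days. The 3-day call was lost without control 3 days replicate 1 (adjusted p = 0.0632), control 3 days replicate 3 (0.0593) or ouabain 3 days replicate 3 (0.0873), while the log2 change stayed at 0.87 or above.

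The second Atp6v0d2 probe set, 1444176_at, gave a similar picture at a dimmer signal. It read 3.40, 3.50 and 3.64 in 3-day controls, 4.47, 4.85 and 4.87 in 3-day ouabain ears, 4.51, 3.78 and 3.78 in 7-day controls and 5.32, 4.37 and 5.48 in 7-day ouabain ears. The groups were separate at 3 days and overlapped at 7 days, where ouabain replicate 2 fell below control replicate 1. Its log2 changes of 1.22 (SE 0.27, adjusted p = 0.00515) and 1.03 (SE 0.27, adjusted p = 0.0137) were both called. The ubiquitous paralog Atp6v0d1, which fills the same position in the proton pump of most cells, changed by -0.13 (SE 0.07) and -0.32 (SE 0.07) on the log2 scale. The 7-day decrease of Atp6v0d1 passed the adjusted p (0.00568) but not the fold threshold, and the 3-day difference passed neither (adjusted p = 0.257).

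Acp5 and Ctsk encode enzymes of the resorbing osteoclast. Acp5, tartrate-resistant acid phosphatase, is the classical histochemical osteoclast marker. It read 4.63, 4.80 and 4.76 in the 3-day controls and 5.62, 6.30 and 7.96 in the 3-day ouabain ears, so all ouabain arrays lay above the controls. At 7 days the controls themselves spread from 4.94 (replicate 2) through 6.29 (replicate 3) to 8.38 (replicate 1), and the ouabain ears at 7.13, 6.32 and 6.39 fell inside that range. The log2 difference at 3 days was 1.89 (SE 0.73, 95% interval 0.31 to 3.48), and with the adjusted p at 0.0854 it was not called. Fitted on the 6 arrays of that day alone it was called (adjusted p = 0.0287). It was also called with the replicate number as a block in limma (adjusted p = 0.0337), though the animals behind each number were not named. At 7 days it was 0.08 with an interval from -1.51 to 1.66, which holds more than a doubling in either direction. The 3-day call depended on single arrays. The adjusted p passed at 0.0192 without control 7 days replicate 1, 0.0378 without control 7 days replicate 2 and 0.0464 without ouabain 3 days replicate 1. At 7 days the log2 difference was 0.997 without control replicate 1 and -0.72 without control replicate 2.

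Ctsk encodes cathepsin K, the collagen-degrading protease of osteoclasts, which fibroblasts also make. It read 9.17, 9.12 and 8.71 in 3-day controls against 9.41, 9.17 and 9.59 after ouabain. At 7 days it read 9.52, 8.75 and 9.07 in controls against 9.70, 9.42 and 9.83 after ouabain. The groups did not overlap at 3 days, though ouabain replicate 2 exceeded control replicate 1 by less than the spread within either group, and at 7 days 1 control array lay inside the ouabain range. The log2 differences were 0.40 (SE 0.19, adjusted p = 0.188) and 0.53 (SE 0.19, adjusted p = 0.0649), and neither was called. Without control 7 days replicate 1 the 7-day difference of Ctsk was 0.74 and was called (adjusted p = 0.0148). Without control 7 days replicate 2 it was 0.35 (limma adjusted p = 0.244), and without ouabain 7 days replicate 3 it was 0.44 (0.179).

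The fusion genes Dcstamp and Ocstamp, which encode membrane proteins needed for precursors to merge into multinucleated osteoclasts, gave no call. Dcstamp read 4.87, 4.66 and 5.35 in 3-day controls, 4.96, 4.89 and 4.76 in 3-day ouabain ears, 5.33, 4.91 and 4.80 in 7-day controls and 4.63, 4.90 and 4.81 in 7-day ouabain ears. Its groups overlapped at both days, and the 95% intervals of the log2 difference ran from -0.47 to 0.29 and from -0.61 to 0.14. Ocstamp read between 3.57 and 4.12 over the 12 arrays, and its interval ran from -0.36 to 0.22 on day 3 and from -0.30 to 0.28 on day 7. None of these intervals reaches a doubling, for either gene at either day. Neither probe set exceeded log2 6 in any array, and dim probe sets are compressed toward background. The intervals therefore bound the measured signal and not the change of the transcript.

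Among the receptors, Tnfrsf11a encodes RANK, on which RANKL acts. Its brighter probe set, 1419214_at, overlapped between control and ouabain ears at both days, with log2 differences of 0.21 (95% interval -0.13 to 0.56) and 0.22 (-0.13 to 0.56). Its dimmer probe set, 1430259_at, read 4.68, 4.91 and 4.72 in 3-day controls and 5.04, 5.57 and 5.49 in 3-day ouabain ears, without overlap. That was a log2 difference of 0.60 (SE 0.15, adjusted p = 0.0102), which was called. At 7 days the dimmer probe set read 5.03, 4.92 and 4.60 against 4.92, 5.13 and 4.94 and was not called. The pair of Tnfrsf11a probe sets therefore disagreed at 3 days, and a call for this gene rested on which of them was read.

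Oscar encodes an immunoglobulin-like receptor for collagen that costimulates osteoclast precursors through the adaptor Fcer1g. Its brighter probe set, 1451710_at, read 4.83, 4.81 and 4.64 in 3-day controls, 4.54, 4.79 and 4.45 in 3-day ouabain ears, 4.87, 4.93 and 4.70 in 7-day controls and 4.38, 4.29 and 4.57 in 7-day ouabain ears. At 7 days every ouabain array lay below every control array. The log2 change there was -0.42 (SE 0.11, adjusted p = 0.016), a fold of 0.746 that did not reach the fold threshold. The second Oscar probe set differed by 0.12 and -0.08, so that the decrease was measured by 1 of 2 probe sets.

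Calcr, the calcitonin receptor through which calcitonin halts resorption, read between 3.03 and 3.58 over the 12 arrays. Its log2 difference was 0.00 (95% interval -0.34 to 0.34) at 3 days and -0.11 (-0.45 to 0.23) at 7 days. The mean of its probe set exceeded only 5.99% of all probe sets, and that of Ocstamp 14.6%, a rank that depends also on how well each probe set hybridizes. No detection calls were used here, so a value at this level does not show that the transcript was present.

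Itgb3 encodes integrin β3, the partner of αv in the attachment receptor of osteoclasts and also a platelet integrin. Its brighter probe set read 6.07, 5.64 and 5.13 in 3-day controls and 5.65, 6.14 and 6.24 after ouabain, and 6.67, 5.76 and 5.94 in 7-day controls against 6.05, 5.76 and 5.96 after ouabain. The groups overlapped at both days. The log2 differences were 0.39 (adjusted p = 0.358) and -0.20 (adjusted p = 0.648), and the second probe set did not pass at either day.

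Nfatc1, the transcription factor that RANK signaling induces, is represented by 5 probe sets. The brightest, 1428479_at, read 7.44, 7.83 and 7.29 in 3-day controls and 7.83, 8.08 and 7.76 in 3-day ouabain ears, with overlap. At 7 days it read 7.54, 7.62 and 7.61 in controls and 8.05, 8.06 and 8.40 after ouabain, so that all ouabain arrays lay above the controls. The log2 change at 7 days was 0.58 (SE 0.14, adjusted p = 0.0107, 1.49-fold), just under the fold threshold, and at 3 days 0.37 (adjusted p = 0.0928). The 7-day change passed the fold threshold and was called without control replicate 2 (0.591), control replicate 3 (0.586), ouabain replicate 1 (0.636) or ouabain replicate 2 (0.632). The next probe set, 1417621_at, differed by 0.05 at 3 days and by 0.42 (adjusted p = 0.0114) at 7 days. The remaining 3 Nfatc1 probe sets did not pass the adjusted p at either day.

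**Figure D2:**
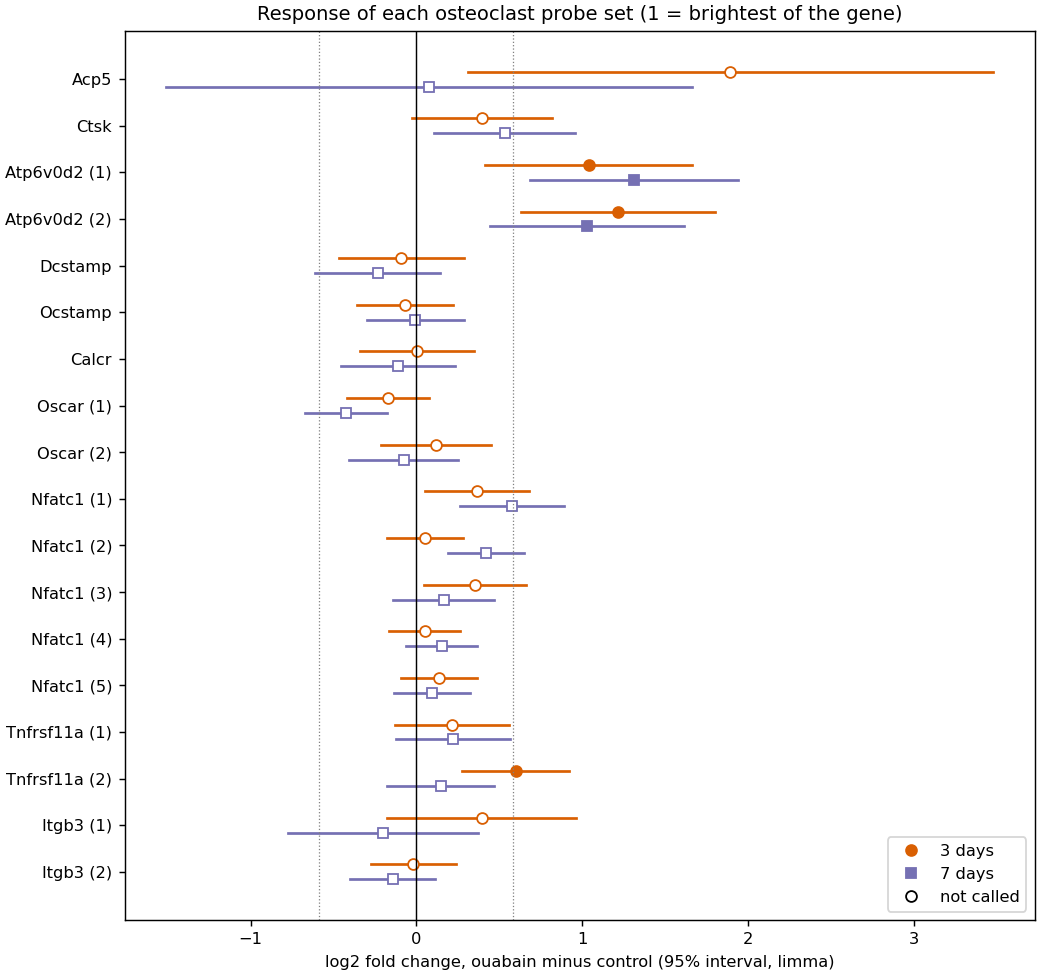
Log2 fold change, ouabain minus control, with its 95% interval from limma for each of the 18 osteoclast probe sets at 3 days (circles) and 7 days (squares); filled symbols were called and dotted lines mark the 1.5-fold threshold. The Atp6v0d2 probe sets are filled at both days and 1 Tnfrsf11a probe set at 3 days, and the Acp5 intervals are the widest of those drawn.

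Counted by separation of the arrays, 3 of the 10 genes (Acp5, Ctsk and Atp6v0d2) had all ouabain arrays above all control arrays at 3 days and none had them below, where 22.4% of all genes were separated upward and 21.2% downward. At 7 days 2 genes (Atp6v0d2 and Nfatc1) were separated upward, against 25.6% of all genes, and 1 (Oscar) downward, against 20.6%. With the adjusted p alone and no fold threshold, 3 osteoclast genes passed at 7 days (Atp6v0d2 and Nfatc1 upward, Oscar downward), and 31.6% of all genes did. The upward counts and the count by adjusted p lay near the shares of all genes, and fewer osteoclast genes than that share were separated downward, with 10 genes too few to place the difference.

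The response to ouabain was compared between days by the difference of the log2 changes. No osteoclast gene passed this limma test, and none had an unadjusted p under 0.05, where 1.24% of all genes passed. The 7-day minus 3-day difference was -1.82 for Acp5 (adjusted p = 0.508), 0.27 for Atp6v0d2 and 0.21 for Nfatc1. The Acp5 interval, from -4.06 to 0.42, was too wide to place the difference. Between the control groups alone, 0.0165% of all genes were called and no osteoclast gene was, although Acp5 was higher by 1.81 in 7-day than in 3-day controls at an unadjusted p of 0.0287 (limma adjusted p = 0.712). That control difference was of about the size of the 3-day response of the same gene.

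The osteoclast genes differed in how much they varied between arrays of the same group. The within-group SD of Acp5 was 1.08 log2 units, larger than that of 99.7% of genes. The SD was 0.417 for Atp6v0d2 (above 96.2% of genes), 0.379 for Itgb3 (95.3%) and 0.274 for Ctsk (90.0%). Acp5, Ctsk and Itgb3 tended to be high in the same arrays, with a Pearson r over the 12 arrays after subtraction of the group means of 0.72 for Acp5 and Ctsk, 0.71 for Acp5 and Itgb3 and 0.78 for Ctsk and Itgb3. Acp5 and Nfatc1 had an r of -0.23. Of the 45 pairs of osteoclast genes, 7 had an r above 0.5 and 1 below -0.5, with a median of 0.11. These correlations describe 12 arrays, in which the genes share the same pools of RNA.

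Mmp9, matrix metalloproteinase 9, a gelatinase made by osteoclasts and by neutrophils, varied closely with Acp5. It was chosen for naming after its values were seen. The within-group r of Mmp9 with Acp5 was 0.94. Of the other resorption genes only Slc9b2 was correlated with Acp5 in this way (r 0.40), so Mmp9 is not ranked among them. In ouabain 3 days replicate 3 Acp5 lay 1.33 and Mmp9 1.17 above the group mean, and in control 7 days replicate 1 they lay 1.84 and 1.25 above it. Control 7 days replicate 1 was also high in marrow genes, with the erythroid anion exchanger Slc4a1 2.27 and the neutrophil gene Mpo 1.41 above the group mean. The summed linear level of 6 erythroid markers was 4570 in that array and between 674 and 747 in the other 7-day controls. The summed level of 9 neutrophil markers was 26356 there and 3856 and 11134 in the others. For 7 marrow B cell markers it was 1587 there, between the 1550 and 1657 of the others. Ouabain 3 days replicate 3 was high in Mpo (1.20 above the mean) and low in Slc4a1 (-0.83), and the r of Acp5 within groups was 0.69 with Mpo and 0.26 with Slc4a1. The part of marrow cells in the Acp5 values was not tested.

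**Figure D3:**
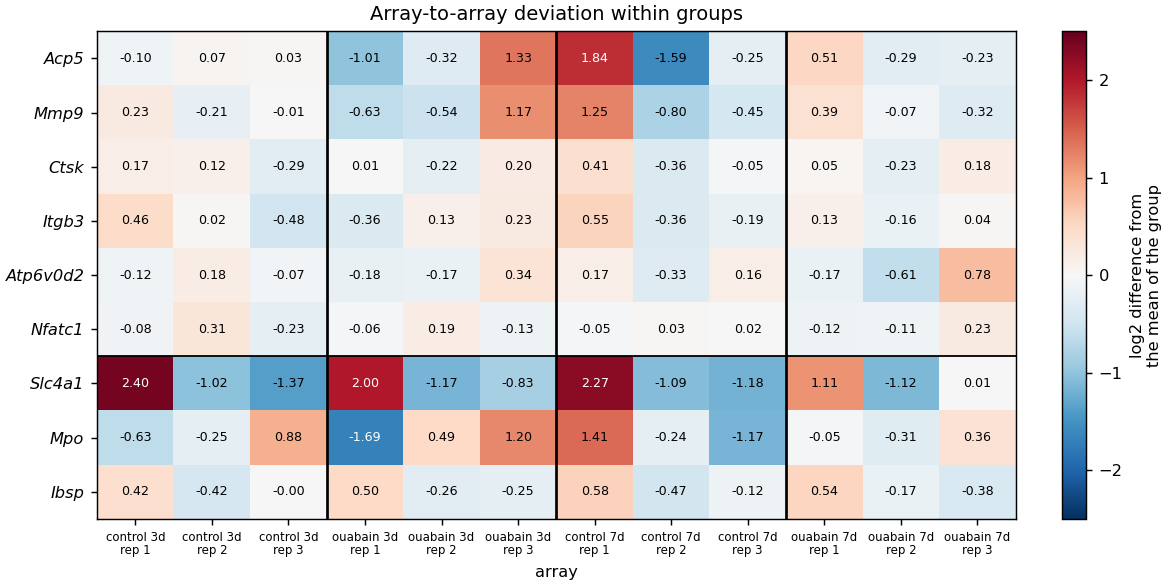
Log2 difference from the mean of its own group for 6 osteoclast or resorption genes (upper rows) and for the marrow genes Slc4a1 and Mpo and the bone matrix gene Ibsp (lower rows) in each of the 12 arrays; red is above and blue below the group mean. Acp5 and Mmp9 are highest in ouabain 3 days replicate 3 and control 7 days replicate 1, and Slc4a1 is highest in replicate 1 of every group.

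The sequences upstream of Acp5 and Ctsk, which varied together between arrays, are shown with that of Oscar, which did not vary with them (r -0.23 with Acp5). They are the 250 bases before the annotated start in RefSeq (mouse build GRCm38.p6), 5′ to 3′ on the strand of the gene. Capitals mark matches, on either strand, to the E-box CATGTG bound by Mitf and to the NFAT core GGAAA, both known from osteoclast genes. The Acp5 window is 1 of 3 annotated starts and the one with an E-box match.
Acp5, chr9:22130599-22130848, minus strand: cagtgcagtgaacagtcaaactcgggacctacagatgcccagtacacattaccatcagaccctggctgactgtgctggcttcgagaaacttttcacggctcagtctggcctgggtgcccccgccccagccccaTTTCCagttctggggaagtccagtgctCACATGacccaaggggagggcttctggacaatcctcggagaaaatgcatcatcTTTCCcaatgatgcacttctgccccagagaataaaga
Ctsk, chr3:95498960-95499209, plus strand: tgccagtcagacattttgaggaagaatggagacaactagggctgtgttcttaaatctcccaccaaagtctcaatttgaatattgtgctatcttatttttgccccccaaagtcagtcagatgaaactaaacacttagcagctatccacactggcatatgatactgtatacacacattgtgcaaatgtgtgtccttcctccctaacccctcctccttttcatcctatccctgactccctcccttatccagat
Oscar, chr7:3616158-3616407, minus strand: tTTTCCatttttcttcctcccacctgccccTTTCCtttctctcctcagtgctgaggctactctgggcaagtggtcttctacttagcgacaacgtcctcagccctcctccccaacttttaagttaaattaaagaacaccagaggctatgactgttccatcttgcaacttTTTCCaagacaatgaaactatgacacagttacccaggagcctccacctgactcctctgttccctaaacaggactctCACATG

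The Acp5 window held 1 E-box match, 90 bases before the start, and 2 NFAT core matches. The Oscar window held 1 E-box match and 3 NFAT core matches, and the Ctsk window held neither. Over 32851 upstream windows of the same length, 12.3% held the E-box and 55.6% the NFAT core. Among the 8 windows found for 5 osteoclast genes, only the Acp5 and Oscar windows shown here held the E-box. The Acp5 start shown was the one with a match, so the windows shown cannot be compared with the E-box share. The AP-1 motif TGANTCA, held by 6.75% of windows, was in none of those shown. A match describes the letters and not a bound site.

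Genes of similar pattern were looked for with the mean centred profile of the 5 genes above log2 6 in at least 3 arrays (Acp5, Ctsk, Atp6v0d2, Nfatc1 and Itgb3). Atp6v0d2 met this limit through its ouabain arrays alone, and the profile was not scaled, so that Acp5, the most variable gene, weighs most in it. Over the 12 arrays the highest Pearson correlations with this profile were those of Ncoa4 (0.92), Slc14a1 (0.88), St3gal2 (0.87), Glipr1 (0.87) and Lsp1 (0.87). After subtraction of the group means they were those of Syk (0.97), Ube2t (0.97), Plek (0.95), Dbf4 (0.94) and F5 (0.94). Both rankings are descriptions of 12 arrays, and no gene stood in both.

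The genes that act upstream of the osteoclast program were then read from a list of 20 entered as promoting differentiation and 6 as restraining it. The promoting list includes Tnfaip3, an inhibitor of NF-κB. Tnfaip3 was not called at either day but counts in the totals and medians. Of the promoting genes 10 rose, 1 fell and 9 were not called at 3 days, and 13 rose, 1 fell and 6 were not called at 7 days. Their median log2 change was 0.58 and 0.69. Of all genes, 7.51% were called higher and 8.06% lower at 3 days, and 7.57% and 8.2% at 7 days, also for the lists below. The gene that fell at both days was Jdp2, named here for that reason. It read 10.11, 10.25 and 10.47 in 3-day controls and 9.44, 9.58 and 9.70 after ouabain. At 7 days it read 10.38, 10.27 and 10.34 in controls and 9.81, 9.59 and 9.72 after ouabain. Csf1r, the receptor for macrophage colony-stimulating factor, rose by 1.02 (SE 0.08, adjusted p = 4.49e-06) and 1.19 (SE 0.08, adjusted p = 1.59e-06), and its ligand Csf1 by 0.77 (SE 0.12) and 0.93 (SE 0.12). For Csf1, 1 of 4 probe sets was called at 3 days and 2 of 4 at 7 days. The adaptor Tyrobp rose by 1.81 and 1.72, the other ITAM adaptor Fcer1g by 1.73 and 1.63 and the Tyrobp-coupled receptor Trem2 by 2.13 and 2.02, the last called in 1 of its 2 probe sets. Fos, a component of the AP-1 factor required for osteoclast formation and an immediate early gene in many cells, rose by 2.93 and 2.35.

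Tnfsf11, the ligand RANKL, gave no call. It read 3.93, 3.97 and 3.98 in 3-day controls, 4.01, 4.24 and 3.97 in 3-day ouabain ears, 4.08, 4.26 and 3.94 in 7-day controls and 4.08, 4.02 and 3.96 in 7-day ouabain ears. The groups overlapped at both days, and the 95% intervals of the log2 difference ran from -0.10 to 0.33 and from -0.29 to 0.14. Its decoy receptor Tnfrsf11b read 10.29, 10.40 and 10.23 in 3-day controls, 10.85, 10.45 and 10.99 in 3-day ouabain ears, 9.57, 9.78 and 10.25 in 7-day controls and 11.15, 10.10 and 10.91 in 7-day ouabain ears. At 7 days Tnfrsf11b rose by 0.86 (SE 0.25, adjusted p = 0.0237) although ouabain replicate 2 lay below control replicate 3, and at 3 days the difference of 0.46 was not called (adjusted p = 0.239). In the restraining list 3 of 6 genes rose at each day and none fell, and the medians were 0.54 and 0.62. Irf8, a repressor of osteoclast formation that also marks the monocyte lineage, rose by 1.14 and 1.11, and the NF-κB inhibitor Nfkbie by 0.74 and 0.85. Nfkb2 rose by 0.62 at 3 days and was not called at 7 days (0.39).

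Genes of acid secretion and matrix resorption did not move one way. Of 21 measured, 4 rose, 1 fell and 16 were not called at 3 days, and 3 rose, 5 fell and 13 were not called at 7 days. Their medians were -0.06 and -0.03. The cell surface glycoprotein Cd44 rose by 1.52 and 1.11, and the membrane collagenase Mmp14 by 1.19 and 0.84. The proton pump subunit Atp6v0a1 changed by -1.01 and -1.12, and Atp6v1b2 by -0.54 (under the fold threshold) and -1.18, opposite in sign to Atp6v0d2. Tcirg1, the a3 subunit of the osteoclast pump, which was chosen for naming after its values were seen, rose with Atp6v0d2, by 0.91 (SE 0.17, adjusted p = 0.00148) and 0.73 (SE 0.17, adjusted p = 0.00682). Subunits of this pump are also abundant in neurons, and the nerve markers fell in the same arrays: 6 of 10 auditory nerve genes measured were called lower at 3 days and 7 at the later time, and the medians were -2.02 and -2.93. The glial factor Sox10 was called higher at 7 days, the single rise in that list, by 0.66 (SE 0.12, adjusted p = 0.00184). The 10 nerve genes all stood above 71.7% of all probe sets in mean level. The part of the nerve in the pump subunit values was not tested.

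Macrophage markers rose with Atp6v0d2 and with the promoting list. At 3 days 17 of 18 macrophage genes rose, at 7 days 16 did, none fell, and the list had median log2 changes of 1.85 and 1.75. Their summed linear level ran from 6168 to 8278 in 3-day controls, from 27730 to 33779 in 3-day ouabain ears, from 6517 to 8627 in 7-day controls and from 24790 to 27702 in 7-day ouabain ears. Ranked by the larger of the changes at 3 and 7 days, the first 4 genes were Lgals3 (3.86 and 2.63), Gpnmb (3.44 and 2.05), Cd68 (3.08 and 2.33) and C1qb (2.07 and 2.31). The summed level of the 10 osteoclast genes ran from 818 to 1012 in 3-day controls, from 1192 to 1541 in 3-day ouabain ears, from 880 to 1560 in 7-day controls and from 1299 to 1728 in 7-day ouabain ears, and overlapped at 7 days. In that linear sum of the osteoclast genes Ctsk weighs most, with a mean log2 level of 9.29 against 7.79 for Nfatc1, the next brightest. Csf1r, Tyrobp, Fcer1g and Trem2 are expressed by macrophages as well as by osteoclast precursors. The part of macrophages in the Atp6v0d2 rise was not tested.

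**Figure D4:**
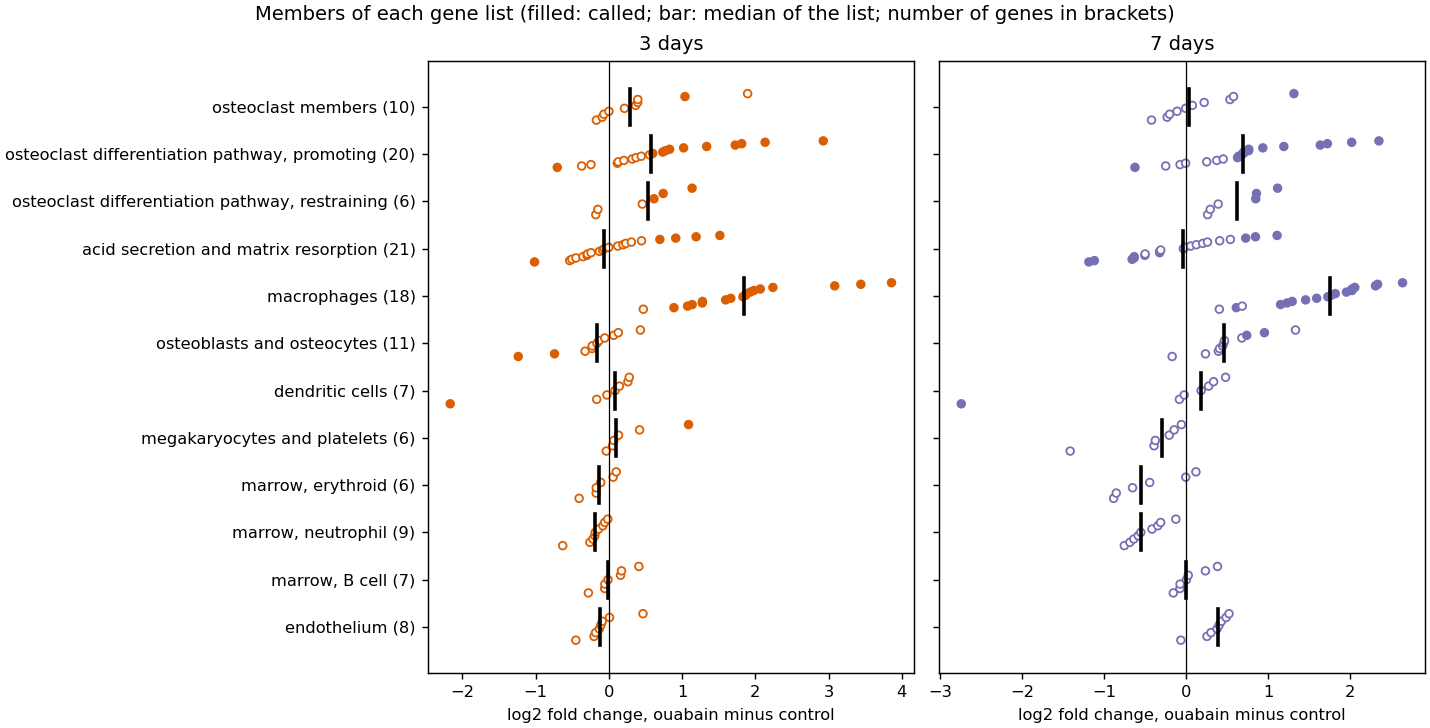
Log2 fold change, ouabain minus control, of each gene of the listed groups at 3 days (left) and 7 days (right), with filled points called, bars at the list median and the number of genes in brackets; the panels have separate x axes. The macrophage points lie to the right at both days, and the osteoclast points lie on both sides of 0, with Atp6v0d2 the single filled one at each day.

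Genes of osteoblasts and osteocytes, the cells that form bone and that supply RANKL and osteoprotegerin to osteoclast precursors, were read in the same way. Of 11 osteoblast and osteocyte genes, Sost and Omd fell at 3 days (-1.24 and -0.74) and none rose, and at 7 days Phex and Pth1r rose (0.95 and 0.74) and none fell. Of all genes, 8.06% were called lower at 3 days and 7.57% higher at 7 days, and 11 genes are too few to place the difference. Sost encodes sclerostin, the osteocyte inhibitor of bone formation. The list's median was -0.16 on day 3 and 0.46 on day 7, and no gene of the list passed the test of the difference between days, with 4 at an unadjusted p under 0.05. The summed level of the list ran from 12512 to 18297 in 3-day controls and from 12418 to 15699 after ouabain, and from 12426 to 14350 in 7-day controls and from 18462 to 21917 after ouabain, so that the 7-day groups did not overlap. Their part in the osteoclast gene values was not tested. No gene of the erythroid, neutrophil, B cell or endothelial lists was called at either day, Pf4 (1.09 at 3 days) was the single gene called among 6 of platelets, and Flt3 (-2.17 and -2.74) the single gene called among 7 of dendritic cells.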

How the data were processed

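The authors hybridized RNA from auditory nerve preparations to 12 Affymetrix mouse genome arrays and deposited log2 expression values per probe set, made by RMA (robust multi-array average, which corrects background, quantile-normalizes and summarizes probes) in Affymetrix Expression Console, per the labels. RMA equalizes the arrays' distributions, so a global shift of RNA content is not seen, and dim probe sets are compressed toward background. The number of arrays limits the precision. From these values limma 3.58.1 (R 4.3.3) fitted 4 group means over all 12 arrays. Of 45101 probe sets, 64 Affymetrix controls were left out. Symbols came from the platform annotation: 34945 probe sets had 1 symbol, 932 had several and 9160 none, and 34741 matched RefSeq by Entrez ID. A gene was called at an adjusted p under 0.05 and a fold above 1.5, the methods' fold. All osteoclast genes were named. From each other list up to 4 called genes with the largest change were named, or otherwise the 2 brightest, with Tnfsf11, Tnfrsf11b, Csf1, Csf1r and Atp6v0d1 whatever their values. The members and lists were chosen with earlier results of these data known. Upstream sequences came from RefSeq. The chromosome of Nfatc1 was left out of the windows, and 5 of the other members had one. The fit was tested on simulated data. Alternatives covered the test, samples, block, thresholds, normalization, weights, probe summary and each left-out array.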

Additional observations from a re-analysis of the deposited data

Results flagged for a closer look

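None of the 10 osteoclast genes had a response that differed between the days by the limma test. Among the other listed genes 2 did. Atp6v1b2, a subunit of the vacuolar proton pump, changed by -0.54 at 3 days and -1.18 at 7 days, a difference of -0.65 (SE 0.12, limma adjusted p = 0.028). This is the brightest of 4 Atp6v1b2 probe sets, of which 1 was called lower at 3 days and 2 at 7 days. The macrophage gene Lgals3 changed by 3.86 and 2.63, a difference of -1.22 (SE 0.23, limma adjusted p = 0.0308), and was higher in ouabain ears at both days.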

How the results depend on the processing

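The count of called osteoclast genes was small, and single arrays or settings moved it. At 3 days it was 2, with Acp5 added, when only the 6 arrays of a day were fitted, and 0 with adjusted p from the unequal-variance test. Leaving out 1 array at a time gave 0 to 2 at 3 days and 1 to 2 at 7 days. At 7 days it was 3 with no fold threshold and 2, with Nfatc1 added, after a second quantile normalization. It was 0 at 7 days with the adjusted p of the methods' unpaired equal-variance test, and 0 with unequal variances for both unadjusted and adjusted p. The counts of genes that differed between days or between control groups were 0 throughout. Over 510 single-gene values, 474 kept direction and side of the threshold, 13 newly passed, 7 no longer passed and 16 changed sign. Where only the test, block, thresholds, level filter or an array of the other day changed, the log2 difference stayed the same by construction. Its sign could not change there, so the count of values that kept direction does not measure stability of the direction. The sign changes were in differences that no fit called. Leaving out 1 array gave ranges of -0.72 to 0.997 for Acp5 at 7 days, -0.24 to 0.10 for Dcstamp at 3 days, -0.19 to 0.071 for Ocstamp at 3 days, -0.084 to 0.047 for Ocstamp at 7 days, -0.10 to 0.13 for Calcr at 3 days and -0.38 to 0.073 for Itgb3 at 7 days. A second quantile normalization gave 0.0012 for Ocstamp at 7 days and -0.0040 for Calcr at 3 days, and array weights gave -0.0038 for the latter. The filter above log2 6 in at least 3 arrays left only 5 osteoclast genes. The arrays' number and, for Calcr, Ocstamp and Tnfsf11, signal near background limit these results.

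With the replicate number as a replicate block the count was 2 at 3 days (Acp5 at adjusted p = 0.0337, Atp6v0d2) and 1 at 7 days, 0 for the difference between days and 0 between controls. Same-numbered control and ouabain arrays deviated together with r of 0.33, 0.09 and 0.18 at 3 days and 0.28, 0.16 and 0.02 at 7 days. All of these r were positive, and equal numbers may mark ears of the same animals. The animals in each pool were not named, so the main fit held no block. Of the 6 control arrays 6, and of the 6 ouabain arrays 4, correlated best with their own number.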
